A study of Mus musculus with 12 samples.

Results

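DNA methylation at CCCGGG sites was compared between 3 colonic adenomas heterozygous for the N151A mutation of Tdg and 3 control adenomas. The Tdg heterozygous adenomas carried 1 mutated and 1 normal copy of Tdg and were wild type for Tet1 (TdgN151A/+). The control adenomas were wild type for both genes. All 6 came from C57BL/6J mice that also carried the Min allele of Apc (ApcMin/+) and were 150 to 160 days old when the adenomas were dissected. The comparison used every autosomal CCCGGG site with at least 100 reads in each of these 6 adenomas. This left 18645 of 164896 autosomal sites, and 10323 of them had under 100 reads in at least 1 of the other 6 adenomas of the series. The series holds 12 adenomas in all, the others being Tet1 null (Tet1-/-) or heterozygous for both genes, called double heterozygous below. Whether the adenomas of a genotype are from different mice is not in the labels, and p-values cover only the spread among the 6 adenomas, part of which may be technical. An adenoma is a mixture of cell types, so a shifted level in 1 cell type and a shifted share of cell types cannot be told apart.

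Tdg encodes thymine DNA glycosylase, a repair enzyme that removes thymine from G:T mismatches and also removes 5-formylcytosine and 5-carboxylcytosine. The Tet enzymes make these bases by oxidising 5-methylcytosine, and repair of the gap left by Tdg puts back an unmodified cytosine. Tet and Tdg together thus form a route of active DNA demethylation. The N151A change replaces an asparagine of the catalytic site of the mouse enzyme. Apc restrains Wnt signalling, and mice with the Min allele develop intestinal adenomas once the normal copy is lost. The comparison asks where methylation differs when 1 of the 2 copies of Tdg carries the mutation. Neither the mutation nor the tissue could be checked in these libraries, which count reads at cut sites only.

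The assay, digital restriction enzyme analysis of methylation, cuts unmethylated CCCGGG with SmaI and the methylated sites that remain with XmaI, and the read end shows which enzyme cut. The level of a site was taken as methylated reads per 100 reads. Total reads were 12639191 to 16881059 in the control and 15404336 to 18865833 in the Tdg heterozygous adenomas, with median depths at the 18645 sites of 533 to 724 and 648 to 788 reads. By reads at Y chromosome sites, each group held 1 male (control 1 and Tdg heterozygous 2) and 2 females. The spiked standards of lowest level averaged 0.42 to 1.19% in the control and 0.125 to 0.555% in the Tdg heterozygous libraries. Those of highest level averaged 98.9 to 99.1% in both. The 14 standards of intermediate level averaged 42.5 to 44.7% in the control and 43.0 to 44.8% in the Tdg heterozygous libraries. Tdg heterozygous adenoma 3 stood apart from the other 5 in level, as described below, and mean levels and counts of sites are also given without it.

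Most of the sites were unmethylated in these adenomas. By their mean level over the 6 adenomas, 11279 sites (60.5%) lay below 5%, 1374 (7.37%) at 5 to 20%, 3528 (18.9%) at 20 to 80% and 2464 (13.2%) above 80%. No methylated read was seen in any of the 6 adenomas at 3686 sites. Levels were low where CCCGGG sites lie close together. CpG islands, the CpG-rich stretches found at many promoters, are mostly unmethylated. The mean level in control adenomas was 30.7% ± 0.256 (SD, n = 3) at the 835 sites with no other CCCGGG site within 500 bp. It was 32.2% ± 0.249 at the 10954 sites with 1 neighbour, 10.3% ± 0.139 at the 3731 sites with 2, and 3.16% ± 0.0253 at the 3125 sites with 3 or more. The value for sites with no neighbour depended on the depth minimum. With a minimum of 20 reads the control mean was 62.5% at 6677 such sites, against 32.8% at 12701 sites with 1 neighbour.

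The mean level over all 18645 sites was 23.1, 22.8 and 22.8% in control adenomas 1, 2 and 3 and 23.1, 23.4 and 24.4% in Tdg heterozygous adenomas 1, 2 and 3. Adenomas 2 and 3 of the Tdg heterozygous group lay above all controls, and adenoma 1 lay within the range of the controls. The group means were 22.9% ± 0.181 and 23.6% ± 0.683, a difference of 0.71 percentage points (two-sided exact permutation p = 0.20, n = 3 each; adjusted p = 0.367 over 11 measures). With 3 against 3 adenomas this test cannot go below 0.10. Without Tdg heterozygous adenoma 3 the difference was 0.33 points.

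Of the 4 classes of site, the difference in points was widest at intermediate levels. At the 3528 sites of 20 to 80%, the control adenomas were at 53.5, 52.4 and 52.2% and the Tdg heterozygous adenomas at 53.6, 54.7 and 58.02%. Here the groups did not overlap, although Tdg heterozygous adenoma 1 and control adenoma 1 differed by less than the spread within either group. The means were 52.7% ± 0.699 and 55.5% ± 2.29, 2.73 points apart (two-sided exact permutation p = 0.10, the smallest possible; adjusted p = 0.367). The difference was 1.45 points without Tdg heterozygous adenoma 3 and 2.49 to 3.65 points without any other single adenoma. Within the females (2 against 2) it was 3.50 points and between the males (1 against 1) 1.21 points. The female value includes Tdg heterozygous adenoma 3. The other Tdg heterozygous female, adenoma 1, was at 53.6%, against 52.4 and 52.2% in the female controls. The intermediate standards of these 6 libraries overlapped between the groups. They averaged 44.2, 44.7 and 42.5% in control adenomas 1, 2 and 3 and 43.0, 44.2 and 44.8% in Tdg heterozygous adenomas 1, 2 and 3. Tdg heterozygous adenoma 3 was thus the highest in these standards as well as in level. With the deposited levels corrected by the standards, the difference in this class was 2.65 points at 3540 sites. A technical part of the difference was not tested.

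Outside this class the groups overlapped. Sites above 80% were at 90.5, 89.5 and 89.7% in control and 90.2, 91.5 and 91.2% in Tdg heterozygous adenomas, with means of 89.9% ± 0.553 and 91.0% ± 0.646 (exact permutation p = 0.20). Sites below 5% were at 0.366% ± 0.0279 and 0.395% ± 0.0206 (exact permutation p = 0.30). At 5 to 20% the control adenomas were at 10.8, 11.6 and 11.04%, Tdg heterozygous adenomas 1 and 2 at 10.2 and 9.92%, and adenoma 3 at 14.8%. Thus 2 of the Tdg heterozygous adenomas lay below all controls and 1 above, and the means of 11.2% ± 0.417 and 11.6% ± 2.76 did not differ beyond the spread (exact permutation p = 1.0). Without adenoma 3 the difference in this class had the opposite sign, at -1.12 points.

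**Figure D1:**
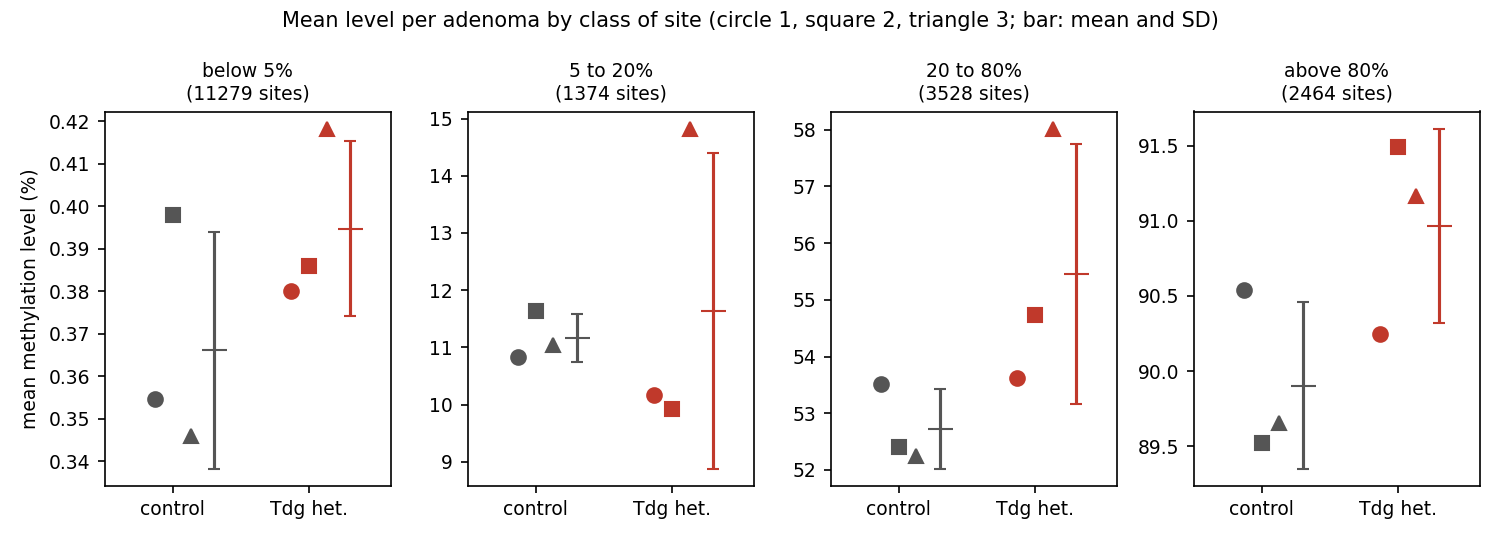
Mean methylation level per adenoma (y axis, percent, a separate scale in each panel that does not start at 0) in 4 classes of site, for control (grey) and Tdg heterozygous (red) adenomas. Circle, square and triangle are adenomas 1, 2 and 3, and bars give the mean and SD of 3. The groups are apart at sites of 20 to 80%, at 52.2 to 53.5% and 53.6 to 58.02%, and overlap in the other classes, with Tdg heterozygous adenoma 3 at 14.8% in the class of 5 to 20%.

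Tdg heterozygous adenoma 3 was the highest of the 6 adenomas at 751 of the 1374 sites of 5 to 20% (54.7%), where each other adenoma was highest at 5.97 to 14.05%. It was the highest at 33.96% of sites of 20 to 80%, followed by Tdg heterozygous adenoma 2 at 25.6%, control adenoma 1 at 17.8%, Tdg heterozygous adenoma 1 at 10.7%, control adenoma 3 at 7.51% and control adenoma 2 at 4.48%. Control adenoma 1 was thus more often the highest than Tdg heterozygous adenoma 1. In this class it was also the most often the lowest of the 6, at 22.4% of sites, against 16.0% for Tdg heterozygous adenoma 1. Above 80%, Tdg heterozygous adenoma 2 was most often the highest, at 30.3% of sites, followed by control adenoma 1 at 22.3%. Control adenoma 1 and Tdg heterozygous adenoma 2, the males, were also more often the lowest at 5 to 20% (22.3 and 35.95% of sites) than any female adenoma (5.97 to 15.9%). This order by sex did not hold in the higher classes. At 20 to 80%, control adenoma 3, a female, was the lowest at 20.4% of sites, against 17.2% for Tdg heterozygous adenoma 2. Above 80%, these males were the lowest at 16.8 and 9.66% of sites, and the female control adenomas 2 and 3 at 21.0 and 22.9%. The part of sex in these shares was not tested.

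The spread between adenomas followed the same classes. The median SD of a site between the 3 adenomas of a group was 6.48 points in control and 7.69 points in Tdg heterozygous adenomas at sites of 20 to 80%. At 5 to 20% it was 2.64 and 4.94 points, and the SD was larger in the Tdg heterozygous group at 1018 of 1374 sites (74.1%), the class in which adenoma 3 stood apart. Above 80% the order was the other way, at 2.34 points in control and 1.96 in Tdg heterozygous adenomas. With 3 adenomas per group these spreads are imprecise, and no test was made.

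By direction, more sites were higher than lower in the Tdg heterozygous adenomas. The difference of the group means was above 0 at 2377 of the 3528 sites of 20 to 80% (67.4%), with a median of 2.97 points (interquartile range -1.55 to 7.23). It was above 0 at 1573 of 2464 sites above 80% (63.8%), with a median of 0.74 points, and at 819 of 1374 sites of 5 to 20% (59.6%). The groups did not overlap at 1304 of the 18645 sites (6.99%): all 3 Tdg heterozygous levels lay above all 3 control levels at 996 (5.34%) and below them at 308 (1.65%). At sites of 20 to 80% these shares were 11.3% (399 sites) above and 1.59% (56 sites) below, and above 80% they were 10.3 and 2.35%. At sites below 5%, where many levels are tied at 0, they were 2.67 and 1.42%. Without Tdg heterozygous adenoma 3, and so with 2 adenomas against 3, the levels were apart at 1696 sites above and 1102 below, closer to each other in number than with it. Leaving out any other single adenoma gave 1489 to 1949 sites above and 525 to 741 below. At sites of 20 to 80%, the share with a higher mean was 59.9% and the median difference 2.12 points without Tdg heterozygous adenoma 3. The sites of a library share its overall level, so these counts are not independent observations. For 3 against 3 untied levels, separation in either direction has a probability of 0.10 if the group labels carry no information. The share to be met with ties was not estimated, and the 6.99% of all sites is not read as a result.

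Differences of at least 10 points were found at 597 sites higher and 244 sites lower in Tdg heterozygous adenomas, of which 521 and 202 had a mean level of 20 to 80%. Differences of at least 20 points were found at 62 sites higher and 30 lower. Without Tdg heterozygous adenoma 3 the counts were 619 higher and 427 lower at 10 points, and 88 higher and 90 lower at 20 points. The excess of higher over lower sites at 20 points was thus not present without this adenoma. Without any other single adenoma there were 67 to 117 sites higher and 24 to 63 lower by at least 20 points.

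**Figure D2:**
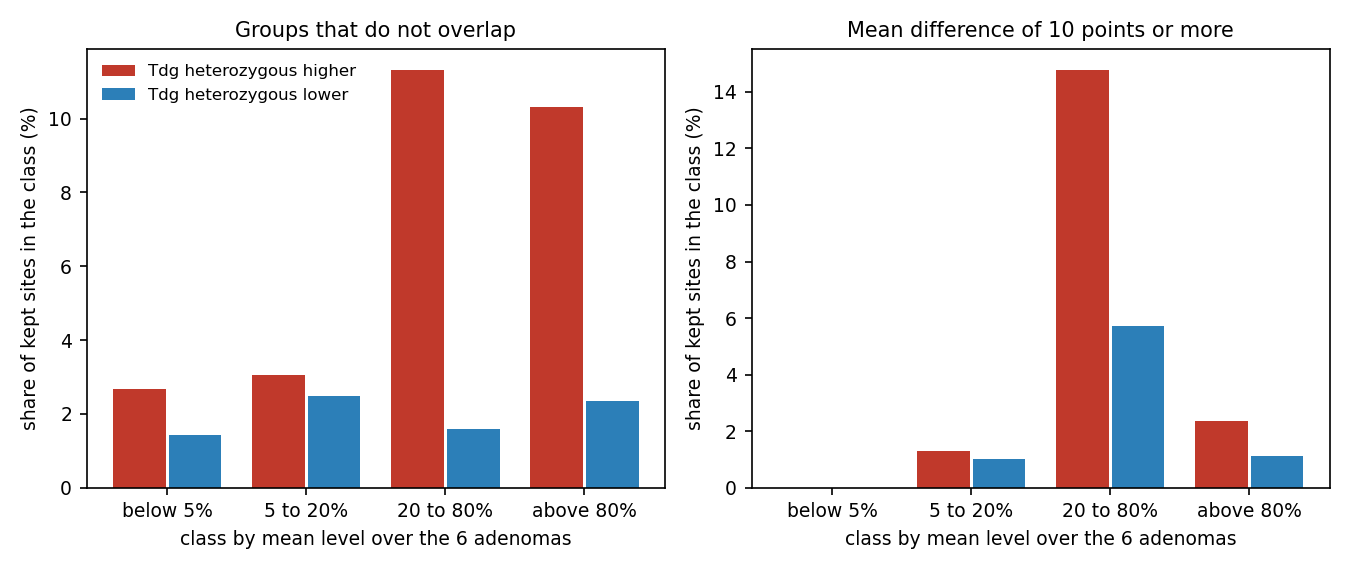
Share of the sites in each class (y axis, percent of sites; x axis, class by mean level over the 6 adenomas) whose 3 Tdg heterozygous levels all lay above or all below the 3 control levels (left), and whose group means differed by 10 points or more (right). Red bars are sites higher and blue bars sites lower in Tdg heterozygous adenomas. Higher sites outnumber lower ones most at 20 to 80%, with 11.3% against 1.59% on the left.

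Sites with 1 neighbouring CCCGGG site within 500 bp were above the controls in all 3 Tdg heterozygous adenomas at 752 of 10954 (6.86%), against 117 of 3731 (3.14%) for sites with 2 neighbours and 87 of 3125 (2.78%) for those with 3 or more. The classes differ in level as well, with 27.5% of sites at 20 to 80% among those with 1 neighbour and 1.28% among those with 3 or more. Below the controls were 1.80% of sites with 1 neighbour, 1.85% with 2 and 0.832% with 3 or more. Of the 835 sites with no neighbour, 4.79% were above and 1.92% below. Without Tdg heterozygous adenoma 3, sites with 1 neighbour were above the controls at 11.2% and below at 7.29%. The mean level of sites with 1 neighbour was 32.2% ± 0.249 in control and 33.3% ± 1.00 in Tdg heterozygous adenomas, and that of sites with 3 or more 3.16% ± 0.0253 and 3.22% ± 0.0361 (exact permutation p = 0.20 for both, adjusted p = 0.367, n = 3). Without Tdg heterozygous adenoma 3 the difference at sites with 1 neighbour was 0.483 points instead of 1.04. The 996 sites above all controls fell in 917 runs of sites no more than 500 bp apart, 74 of which held at least 2 such sites. The 308 sites below fell in 297 runs, 11 of which held at least 2, and 21 runs held sites of both kinds.

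Large departures of single sites were rare in both groups. A gain was counted where both of 2 reference controls were under 5% and the adenoma reached 15%. Each control adenoma was set against the other 2, and each Tdg heterozygous adenoma was given the mean over the 3 pairs of controls. Gains made up 0.0805, 0.0375 and 0.0268% of sites in the control adenomas and 0.0197, 0.0912 and 0.0232% in the Tdg heterozygous adenomas (permutation p = 0.80, n = 3). A loss was counted where both reference controls were over 80% and the adenoma did not exceed 60%. Losses made up 0.0858, 0.118 and 0.0965% of sites in control and 0.109, 0.186 and 0.0125% in the Tdg heterozygous adenomas (permutation p = 1.0). The 3 Tdg heterozygous adenomas differed more among themselves in losses than the groups did. Adenoma 2 had the most gains and the most losses of the 6, and adenoma 3 the fewest losses. Without Tdg heterozygous adenoma 2 the group means were 0.0215% for gains, against 0.0483% in control, and 0.0608% for losses, against 0.1001%. Without adenoma 3 the mean of losses was 0.147%. The reference pairs differ between the groups and were not redrawn when labels were permuted, so these p-values are approximate. With 3 adenomas per group they do not show that the genotypes are alike.

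Of the 18645 sites, 14936 had reads of both states and were tested one by one. No site was called as changed between Tdg heterozygous and control adenomas at an adjusted p under 0.05 (edgeR's quasi-likelihood test with Benjamini-Hochberg adjustment, 0% of sites). With no adjustment, 630 sites (4.22%) had a p under 0.05, of which 422 (2.83%) were higher and 208 (1.39%) lower in Tdg heterozygous adenomas. Limma and a quasi-binomial model also called 0 sites. The median standard error of the log2 odds ratio was 0.55 at sites of 20 to 80%, 0.57 above 80% and 1.35 below 5%. On simulated sites, whether changed sites were recovered depended on the form of spread put between samples, and under 1 of 2 forms edgeR and limma recovered none, so a count of 0 does not show that no site differed. The count of called sites also depended on the setting. It was 9 when all 12 adenomas were fitted together, 10 with sex as a covariate, 11 with a minimum of 20 reads and 7 with a minimum of 300. Without control adenoma 1 it was 10, without control 2 or control 3 it was 1 each, and without Tdg heterozygous adenoma 2 it was 9. Over the alternatives tested site by site, 22 different sites passed at least once, and 11 of them are among the 20 sites described next.

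Since none passed, the sites described are the 10 of smallest unadjusted p in each direction, at most 1 per run, among those whose groups did not overlap. The lack of overlap is therefore part of how they were chosen. Positions are those of the mouse build mm9, and sites were not assigned to genes, because the gene table at hand is of another build. None of the 20 passed in the edgeR test (adjusted p = 0.0882 to 0.460) or by limma (adjusted p = 0.493 to 0.962).

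The site with the smallest p of all lay on chromosome 7 at position 81832536. It was at 86.4, 75.4 and 81.0% in the control adenomas and at 34.7, 44.2 and 42.1% in the Tdg heterozygous adenomas. All 3 Tdg heterozygous values were below every control value by more than 30 points. The means were 81.0% ± 5.49 and 40.3% ± 4.96 (SD, n = 3), a difference of -40.6 points, from 707 to 1168 reads per adenoma (edgeR adjusted p = 0.0882). The adjusted p was 0.0224 with all 12 adenomas in the fit, 0.00761 with sex as a covariate and 0.493 by limma, and it ranged from 0.00761 to 0.826 over the alternatives. Tet1 null adenomas were at 82.2, 66.7 and 80.9%, and double heterozygous adenomas, which carry the same Tdg mutation, at 79.5, 50.9 and 70.5%. The second of these double heterozygous values was the closest to the Tdg heterozygous range, and the third rests on 78 reads. A kept site 275 bp away, at position 81832261, was at 88.8, 65.4 and 58.8% in control and 79.8, 24 and 62.8% in Tdg heterozygous adenomas, where only adenoma 2 lay below the controls.

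On chromosome 18, position 82565815 was at 89.4, 74.4 and 86.8% in control and 39.9, 55.0 and 50.8% in Tdg heterozygous adenomas (edgeR adjusted p = 0.170, and 0.0163 to 0.986 over the alternatives). The neighbouring site 267 bp away, at position 82566082, did not share this order, with 21.2, 33.9 and 67.0% in control and 21.3, 76.9 and 31.8% in Tdg heterozygous adenomas. On chromosome 8, position 93063364 was at 49.05, 70.4 and 79.2% in control and 31.6, 24.8 and 40.4% in Tdg heterozygous adenomas. Its 3 double heterozygous values lay close together at 50.3, 51.8 and 50.97%, above all Tdg heterozygous values and above control adenoma 1. The kept site 383 bp away, at 93063747, had the opposite order, with means of 83.7% in control and 91.3% in Tdg heterozygous adenomas. On chromosome 5, position 101511859 was at 92.4, 93.1 and 96.6% in control and at 64.9, 27.03 and 87.6% in Tdg heterozygous adenomas. This site was read 113 to 222 times per adenoma, and its Tdg heterozygous SD of 30.6 points was the widest of the 20 sites in that genotype. Position 170822710 on chromosome 2 was nearly fully methylated in control, at 99.5, 98.6 and 98.3%, and at 88.9, 87.8 and 97.2% in Tdg heterozygous adenomas.

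The other 5 sites lower in Tdg heterozygous adenomas were low in both groups or partly methylated in control. On chromosome 18, position 43741702 was at 37.7, 16.6 and 25.2% in control, 7.53, 3.30 and 11.4% in Tdg heterozygous and 24.5, 11.4 and 11.02% in double heterozygous adenomas. Tet1 null adenomas were far above all of these at 93.3, 78.4 and 92.05%. On chromosome 4, position 59048045 was at 4.10, 22.3 and 2.41% in control and 0.58, 1.95 and 0% in Tdg heterozygous adenomas, the last being no methylated read, which allows a level of up to 0.274% (counting error only). Control adenoma 2 set most of this difference, as it did at position 59048357, 312 bp away, with 3.95, 21.8 and 2.29% in control and 0.658, 1.84 and 0% in Tdg heterozygous adenomas. The 2 positions lie in 1 run and are not independent. On chromosome 14, position 24822701 was at 10.1, 7.53 and 1.20% in control and 0.685, 0.604 and 0.86% in Tdg heterozygous adenomas. On chromosome 1, position 182262144 was at 12.03, 3.96 and 9.49% and at 1.22, 1.36 and 0.712%, and on chromosome 11, position 82203296 was at 6.50, 3.75 and 0.821% and at 0.648, 0.786 and 0.222%. In each of these last 3 sites the lowest control was within 4 points of the Tdg heterozygous values.

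Among the sites higher in Tdg heterozygous adenomas, position 75544312 on chromosome 15 had the widest difference. It was at 56.4, 35.4 and 53.7% in control and at 76.6, 78.0 and 81.1% in Tdg heterozygous adenomas, 30.1 points apart in the mean (edgeR adjusted p = 0.354, and 0.114 to 0.986 over the alternatives). The Tdg heterozygous values lay within 5 points of each other, and the control values were spread more widely. The 2 kept sites in the same run did not follow: at position 75543814 the means were 37.5% in control and 30.2% in Tdg heterozygous adenomas, and at position 75544116 they were 20.3 and 21.2%. On chromosome 11, position 35091321 was at 50.8, 63.9 and 69.2% in control and 89.8, 89.4 and 83.5% in Tdg heterozygous adenomas (edgeR adjusted p = 0.194). At 69333494 of that chromosome the values were 39.5, 53.4 and 79.9% and at 83.7, 80.9 and 90.0%, with 1 control value about 1 point below the lowest Tdg heterozygous value. Its kept neighbour at 69333276 was lower in the Tdg heterozygous group, at 94.9% in control and 89.0% in Tdg heterozygous adenomas. On chromosome 9, position 118790276 was at 89.1, 51.4 and 69.1% and at 91.3, 96.5 and 93.6%, again with 1 control near the Tdg heterozygous range.

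On chromosome 15, position 103144450 was at 3.00, 8.31 and 5.36% in control and 20.4, 26.3 and 16.2% in Tdg heterozygous adenomas. The means of both kept neighbours were higher in Tdg heterozygous adenomas too, with overlap at the first. Position 103144871 was at 26.8, 34.7 and 17.3% in control and 33.1, 47.5 and 35.8% in Tdg heterozygous adenomas, and position 103145070 at 30.7, 37.8 and 18.9% and at 39.0, 71.9 and 47.1%. At both neighbours Tdg heterozygous adenoma 2 was the highest. Tet1 null adenomas were at 15.9, 17.5 and 30.8% at the first of these 3 positions and double heterozygous adenomas at 26.1, 5.91 and 8.55%. On chromosome 2, the site at 172371626 was at 4.69, 1.65 and 3.57% in control and 5.56, 33.0 and 21.6% in Tdg heterozygous adenomas, so adenoma 1 stayed near the controls.

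The remaining 4 higher sites were highly methylated or almost unmethylated in both groups. Position 129942751 on chromosome 5 was at 92.3, 75.7 and 74.7% in control and 96.5, 96.2 and 94.3% in Tdg heterozygous adenomas. On chromosome 2, position 76589461 was at 95.4, 90.7 and 95.5% and at 98.2, 99.2 and 98.9%, and on chromosome 4, position 82711674 was at 87.1, 96.0 and 95.2% and at 100, 98.9 and 100%. The last site rests on 125 to 194 reads per adenoma. On chromosome 7, position 77514977 was at 0.067, 0.665 and 0.267% in control and 1.22, 0.872 and 7.55% in Tdg heterozygous adenomas, where adenoma 3 set most of the difference.

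All kept neighbours in the runs of the 20 named sites were counted as well. Of the 10 neighbours of higher sites, 8 had a higher and 2 a lower mean in Tdg heterozygous adenomas, and the groups were apart at 2 of them. Of the 10 neighbours of lower sites, 8 had a lower and 2 a higher mean, and the groups were apart at 1. Over all 18645 kept sites, 8820 had a higher and 6115 a lower mean, and the groups were apart at 6.99%. Sites of a run lie close together in the same libraries, so the neighbours are not independent of the named sites and give no separate support.

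**Figure D3:**
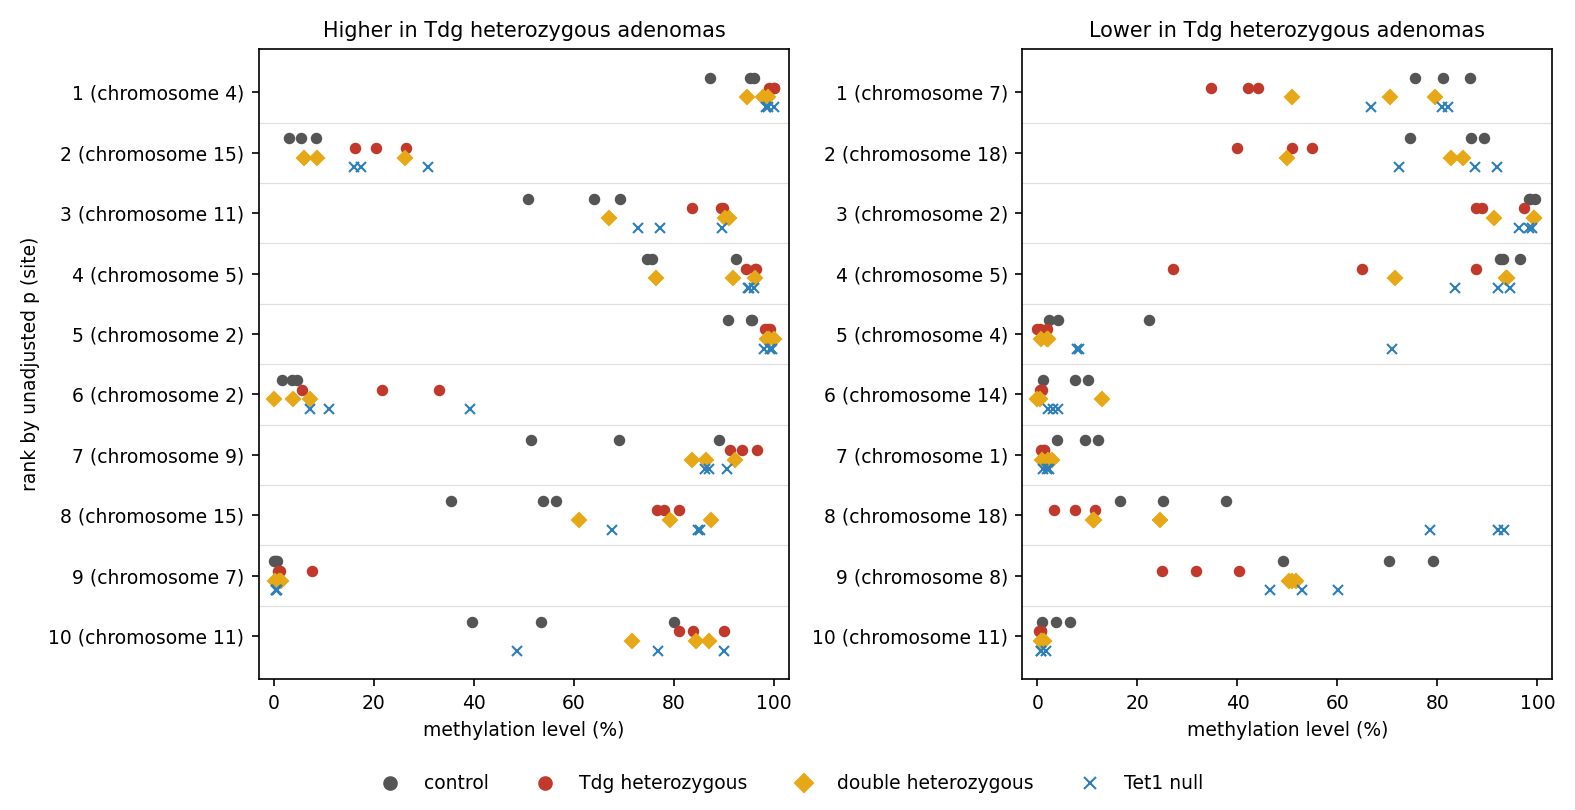
Methylation level (x axis, percent) of the 10 sites with the smallest unadjusted p that were higher (left) and lower (right) in Tdg heterozygous adenomas, in order of p, with 3 points per genotype. The lack of overlap between grey (control) and red (Tdg heterozygous) points is part of how the sites were chosen, and none passed the adjusted threshold. At the first site on the right the red points lie at 34.7 to 44.2% and the grey ones at 75.4 to 86.4%, and at the eighth the Tet1 null values lie at 78.4 to 93.3%. Points of Tet1 null and double heterozygous adenomas had no depth minimum. Double heterozygous adenoma 3 had 16 reads at the sixth site on the left and 7 at the fourth on the right.

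Reads were also summed over runs of at least 2 kept sites no more than 500 bp apart, which gave 6666 runs with reads of both states and 15759 sites. No run was called (edgeR, adjusted p under 0.05, 0% of runs). With no adjustment, 265 runs (3.98%) had a p under 0.05, 184 higher (2.76%) and 81 lower (1.22%) in Tdg heterozygous adenomas. The count stayed at 0 under every alternative run for runs, namely the 3 other depth minimums, runs of up to 1000 bp between sites, the replicate block, sex as a covariate and each adenoma left out.

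The run with the smallest p lay on chromosome 10 (mm9, 74424271 to 74424647) and held 2 sites. It was at 78.7, 82.7 and 89.5% in control and 93.9, 95.5 and 93.3% in Tdg heterozygous adenomas (edgeR adjusted p = 0.859, as for all 6 runs named here). Tet1 null adenomas were at 93.5, 95.04 and 93.5% and double heterozygous adenomas at 94.4, 93.7 and 95.9%, so the controls were the lowest and the most spread of the 4 genotypes. The run was picked for its difference from these same controls. The place of the other genotypes above them is therefore not separate support. On chromosome 17, the run from 74092260 to 74092673 was at 51.3, 66.2 and 54.3% in control and 82.6, 83.3 and 70.6% in Tdg heterozygous adenomas, and both of its sites were higher, by 23.5 and 19.8 points. On chromosome 3, the run from 30356182 to 30356375 was at 56.4, 63.8 and 64.2% and at 75.6, 79.0 and 80.5%. Its 2 sites were higher by 13.6 and 20.3 points, and neither site overlapped between the groups.

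Among lower runs, that on chromosome 15 from 13103764 to 13104447 held 3 sites and 3493 to 6282 reads per adenoma. It was at 13.4, 12.5 and 20.2% in control and 6.57, 5.79 and 3.68% in Tdg heterozygous adenomas. Double heterozygous adenomas were at 5.12, 7.72 and 8.25% and Tet1 null adenomas at 26.3, 22.6 and 16.3%. Its sites did not rank the controls alike: control 1 was the highest control at position 13104447, at 36.3% against 6.47 and 1.64%, and control 3 at position 13104077, at 38.8% against 6.27 and 20.8%. The run on chromosome 7 from 81832261 to 81832536 contains the site described first, and was at 87.6, 70.4 and 70.0% in control and 57.1, 34.1 and 52.4% in Tdg heterozygous adenomas. A run of low level on chromosome 10, from 45055676 to 45055882, was at 2.23, 2.85 and 2.98% and at 1.07, 0.764 and 0.726%.

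The mean level was higher in the Tdg heterozygous group on each of the 19 autosomes, by 0.515 points (chromosome 16) to 0.943 points (chromosome 10). The groups did not overlap on 9 of the 19 chromosomes (exact permutation p = 0.10 for each, adjusted p = 0.211 over 19). Chromosome 10, which carries Tdg, was at 22.1, 21.9 and 21.8% in control and 22.3, 22.8 and 23.5% in Tdg heterozygous adenomas over 967 sites. Chromosome 18, which carries Apc, was at 23.4, 22.7 and 22.9% and at 23.5, 23.4 and 24.5% over 535 sites, and here the groups overlapped. Tdg heterozygous adenoma 3 was the highest of the 6 on all 19 chromosomes. Without it the mean was still higher on each chromosome, but by 0.0724 points (chromosome 8) to 0.628 points (chromosome 13), and the difference was 0.0944 points on chromosome 16 and 0.618 on chromosome 10. Leaving out any other single adenoma gave differences of 0.433 to 1.24 points. The chromosomes of an adenoma share its overall level, so these are not independent comparisons, and with chromosome 10 left out the mean difference over all sites was 0.70 points against 0.71 with it.

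**Figure D4:**
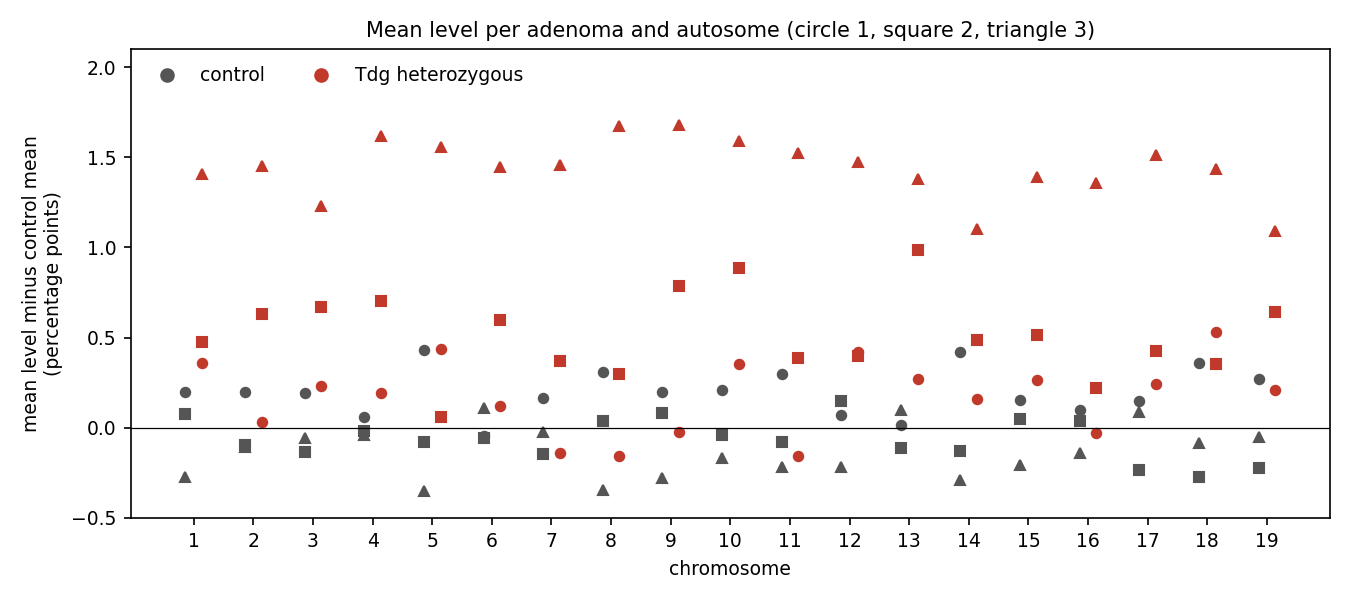
Mean level per adenoma on each autosome minus the mean of the 3 controls (y axis, percentage points; x axis, chromosome), for control (grey) and Tdg heterozygous (red) adenomas 1 (circle), 2 (square) and 3 (triangle). Tdg heterozygous adenoma 3 is the highest on every chromosome, and adenoma 1 lies among or near the controls.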

How the data were processed

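Methylated and unmethylated reads per CCCGGG site come as counts that the authors deposited in 1 table per adenoma. The tables also hold deposited percent values, raw and corrected with the spiked standards per the labels' protocols. Trim Galore, Bowtie2 and the build mm9 are named in the submitters' processing notes. For these tools, versions were not given in the sources used here. A rat build is named by the protocol text, but the file headers name mm9.

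Samples were grouped by genotype. The depth filter of 100 reads was applied to autosomal sites over these 6 adenomas alone. The 3709 whose reads were all methylated or all unmethylated were not tested. The main test was the quasi-likelihood test of edgeR 4.0.16 (R 4.3.3) on counts, with a depth coefficient per adenoma, a methylated-count coefficient per genotype and a dispersion without a trend (0.0967). The 2 counts of an adenoma had the same library size. Limma 3.58.1 on log2 ratios of the deposited counts, a quasi-binomial model, other depths, sex, a replicate block and leaving out each adenoma were alternatives. Single values per adenoma were compared by exact permutation, with the limit given above for gains and losses.

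The tests were run on simulated counts with known changes and 2 forms of spread between samples. With beta-binomial spread, tried first, edgeR and limma recovered no changed site. After this result the simulated spread was changed to a normal one on the logit scale, the tests being left as they were. Its size was taken from the SD within groups in the data. With this form edgeR recovered most changed sites with no false call. Which form is closer to the spread of the data at low and high levels is not settled, so neither run shows how many changed sites could be found. Total reads are given in the text. Limits from a count of 0 cover counting error only. Within a group, 2 adenomas differed at 26.3 to 39.9% of sites (chi-square p under 0.05), so no library looked deposited more than once. The named sites are, per direction, the 10 of largest difference past the threshold, filled up by smallest p among sites whose groups do not overlap. The comparison, classes and rules were chosen with earlier results of these data known. Gene annotation was not used here, since the table at hand is of another build.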

Additional observations from a re-analysis of the deposited data

How the results depend on the processing

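The count of 0 called sites became 1 at an adjusted p under 0.10, 11 with a minimum of 20 reads, 7 with 300 reads, 9 with all 12 adenomas in the fit and 10 with sex as a covariate, and it ranged from 0 to 10 without 1 adenoma. It remained 0 under the other alternatives for sites, among them limma on count ratios and on the adjusted level, the quasi-binomial model and X chromosome sites included. Adenomas of the same number did not deviate together (r = 0.049, -0.056 and 0.106 across sites for numbers 1, 2 and 3), so the numbers were not taken as pairs. With the replicate block 0 sites and 0 runs were called, and 522 sites had an unadjusted p under 0.05. At that limit 67.0% of sites were higher in Tdg heterozygous adenomas, against 78.6% with limma on the adjusted level, 82.6% with the quasi-binomial model and 78.4% at sites of 5 to 95%. The share was lower in other settings, at 60.3% without Tdg heterozygous adenoma 3, 62.2% without control 3, 63.4% without control 2 and 63.8% with a minimum of 20 reads. The 20 named sites kept their direction in all 366 alternative values, and 11 of them passed at least once. They were chosen by smallest p among sites whose groups do not overlap, and the alternatives reuse the same reads. The kept direction was therefore largely fixed by that choice and is not separate support. Of 113 alternative differences in levels and shares per adenoma, 9 changed sign. These were the class of 5 to 20% without Tdg heterozygous adenoma 3 (-1.12 to 1.33 points over the adenomas left out), gains with the adjusted level (0.00834 points) and without Tdg heterozygous adenoma 1 or 3 (-0.0268 to 0.00894 over the adenomas left out), and losses with 20 or 50 reads (-0.0080 and -0.00304), with wider limits (-0.00596) and without Tdg heterozygous adenoma 1 or 2 (-0.0393 to 0.0474). The cause was not tested. Gains and losses without 1 control could not be computed, since no pair of other controls is left. The alternatives for counts of sites that do not overlap or differ by 10 points, for neighbouring sites, for chromosomes and within each sex were chosen after seeing the data.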

Other observations

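On the X chromosome, 324 sites had at least 100 reads in all 6 adenomas. Their mean level was 21.8% in control adenoma 1 and 21.8% in Tdg heterozygous adenoma 2, the adenomas with reads at Y chromosome sites. It was 39.8 and 41.1% in control adenomas 2 and 3 and 40.8 and 41.0% in Tdg heterozygous adenomas 1 and 3. The adenomas thus split by the presence of Y reads and not by genotype in this mean. Methylation of CpG islands on the inactive X chromosome of female cells is known background.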
